A study of Mus musculus with 2 samples.

Results

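Bile acids are made in the liver, released into the duodenum and recovered in the ileum, the last stretch of the small intestine. There the apical transporter ASBT (Slc10a2) takes them up, the cytosolic protein Fabp6 carries them across the enterocyte, and the paired transporter OSTα-OSTβ (Slc51a and Slc51b) exports them towards the portal blood. Inside the cell bile acids activate the nuclear receptor FXR (Nr1h4), which acts as a dimer with RXR and is known to switch on Fabp6, Slc51a, Slc51b, the hormone gene Fgf15, which signals to the liver to lower bile acid synthesis, and Nr0b2, which encodes the repressor SHP. These 7 genes were chosen by name from the 32285 genes listed in the count tables. All 7 were detected in both libraries.

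The cells were taken from mouse intestine on day 7 of treatment with dextran sulfate sodium (DSS, 2.5% in the water), which damages the epithelium. Wild type (WT) mice gave 1 library, and MG53-TG mice, which carry an MG53 transgene, gave the other. MG53 is the membrane repair protein TRIM72, overexpressed in the whole body of MG53-TG mice, and the WT mice were littermates. Both groups received DSS, so no value from uninjured mice enters. Crypts were dissociated and live epithelial cells, EpCAM+ and 7-AAD-, were isolated by sorting and loaded on a 3′ droplet kit. The study gives how many mice each group had. The tables hold no map from cells to mice, so mice cannot be told apart. The study also describes the cells as CD45-, a gate the labels do not name. The promoter of the transgene, the age of these mice and the stretch of intestine taken were not found in the sources used here.

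After the common filter 6963 WT cells with a median of 14035 unique molecular identifiers (UMIs) and 4941 MG53-TG cells with a median of 17950 UMIs were kept, of which 6119 and 4606 were epithelial. In these, 11 enterocyte markers summed to 6334 and 6690 CPM (counts of a gene relative to all UMIs of the summed cells) with none at 0, and 6 colonocyte markers to 176 and 158 CPM with 1 at 0. Despite the sort, 844 WT and 335 MG53-TG cells lay outside the epithelial clusters, of which the T cell-like cells (575 and 231) serve here only as a comparison. Trim72, the gene of the transgene, was at 0.594 CPM in epithelial cells of WT and 50.8 CPM in those of MG53-TG. With 1 library per group there was no replicate, so no test between genotypes was made. Intervals are at 95% and cover counting error only. The WT table came from Cell Ranger 4 and the MG53-TG table from 6.0.1, so program version and library cannot be told apart from genotype. Levels of different genes are not ranked against each other, because UMIs from the 3′ end are not scaled by length.

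Promoter sequence is shown for the carrier and for 1 subunit of the exporter, because FXR is known to bind an inverted repeat of a 6-base element with 1 base between the copies. RefSeq promoters (GRCm38.p6, the build of the count tables) were found for 6 of the 7 members, the exception being Fgf15. The motif was searched as a half-site, 1 free base and the reverse complement of the half-site, which reads the same on both strands, with N for any base. The motif was chosen after the promoter sequences were seen, so its share over all windows does not measure how unlikely a match is. The inverted repeat of the loose half-site NGGTNA was in 0.259% of all 32851 promoter windows of 250 bases before and 50 after the start. Fabp6 held it at 2 places, 222 and 142 bases upstream of its RefSeq start, and Slc51b at 1 place, 187 bases upstream of its RefSeq start (65422773). The GENCODE start of Slc51b differs (65422955), and the match, from 65422948 to 65422960, lies across it. It was not found in the windows of Slc10a2, Slc51a, Nr1h4 and Nr0b2, and the repeat of the strict half-site AGGTCA, in 0.00913% of windows, matched no member. Capitals mark these matches in the sequences, which run 5′ to 3′ on the minus strand and stop before the annotated transcript start for Fabp6. A match describes letters and not binding.
Fabp6, chr11:43601563-43601812: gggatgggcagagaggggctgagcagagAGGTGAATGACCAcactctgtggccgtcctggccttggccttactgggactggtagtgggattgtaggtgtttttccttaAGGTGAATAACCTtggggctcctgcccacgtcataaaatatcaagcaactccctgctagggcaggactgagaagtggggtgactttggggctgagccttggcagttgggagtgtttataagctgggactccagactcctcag
Slc51b, chr9:65422939-65422968: cattcgtgGGGTCATTCACCCtggactggc

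In the annotation (GENCODE M21, same build) Fabp6 lies on chromosome 11 from 43596049 to 43601540, Slc10a2 on chromosome 8 from 5083219 to 5105351, Slc51a on chromosome 16 from 32474504 to 32487879 and Slc51b on chromosome 9 from 65412714 to 65422955, all on the minus strand. Nr1h4 lies on chromosome 10 from 89454234 to 89533585 on the minus strand, Fgf15 on chromosome 7 from 144896531 to 144900953 and Nr0b2 on chromosome 4 from 133553376 to 133556536, both on the plus strand. Slc51a overlaps Pcyt1a and Slc51b overlaps Rasl12 on the other strand, and Fgf15 overlaps the antisense genes Gm26793 and Gm39119. Whether counting used the strand is not stated, so reads of these partners may not be separated.

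The first question was which cells expressed the genes. Uptake and carrier genes were concentrated in absorptive cells. Of the epithelial Fabp6 UMIs, absorptive progenitor-like cells held 71.1% (WT) and 56.4% (MG53-TG), although they made up 20.2% and 10.9% of epithelial cells. Enterocyte-like cells held 25.9% and 39.3% of them and made up 20.3% and 20.1% of the cells. For Slc10a2 the order was turned, with 17.3% and 14.1% in absorptive progenitor-like and 80.3% and 83.9% in enterocyte-like cells, and for Fgf15 enterocyte-like cells held 86.3% and 90.6%. The exporter genes were spread over both classes, with 46.8% and 62.9% of Slc51a and 57.1% and 76.4% of Slc51b UMIs in enterocyte-like cells. Nr1h4 was spread over more classes. Its UMIs were 39.2% and 24.6% in absorptive progenitor-like, 19.6% and 25.8% in enterocyte-like, 18.8% and 11.1% in stem-like and 10.9% and 25.2% in goblet-like cells, so that the order of the classes differed between the libraries.

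Fabp6 was highest in absorptive progenitor-like cells, at 1100.4 CPM (WT) and 594 CPM (MG53-TG), followed by enterocyte-like cells at 644 and 322 CPM. These 2 levels did not overlap in their intervals in either library. The absorptive progenitor-like level rested mostly on 1 of its clusters, cluster 13, with 23602 of 25822 WT UMIs. Another of its clusters, cluster 9, was at 6.41 (WT) and 1.76 CPM (MG53-TG). At least 1000 CPM was reached by 12.8% (WT) and 7.4% (MG53-TG) of absorptive progenitor-like cells. Among enterocyte-like cells these shares were 18.6% and 7.55%. Below the 2 absorptive classes came enteroendocrine-like cells at 37.5 CPM (WT) and 1.94 (MG53-TG). Stem-like, tuft-like, goblet-like, Paneth-like and secretory progenitor-like cells were at 5.87 to 14.8 CPM (WT) and 0.508 to 7.95 CPM (MG53-TG), and several neighbours in the order overlapped. T cell-like cells, which should lack the gene, had 33 Fabp6 UMIs (18.6 CPM, 12.8 to 26.1) in WT and 0 UMIs in MG53-TG. Wherever 0 UMIs were counted, the limit given is the level that 3 UMIs would make, here 3.41 CPM. In CPM the WT levels outside the absorptive classes were thus at or below the T cell-like level, except in enteroendocrine-like cells (29.9 to 46.3 CPM). The T cell-like cluster was shallower, with a median of 3012 UMIs against 27260 and 19006 in the 2 stem-like clusters. In counts, 575 WT T cell-like cells held 33 Fabp6 UMIs and 996 WT stem-like cells held 350. Whether the levels outside the absorptive classes are background was not tested. In MG53-TG the tuft-like level (7.95 CPM, 5.44 to 11.2) was above the limit of 3.41 CPM. The goblet-like (3.63 CPM, 2.93 to 4.44) and stem-like levels (3.58 CPM, 2.66 to 4.70) were also above it, with intervals that included it. This limit rests on only 231 T cell-like cells.

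Slc10a2 had a clear order at the top. Its level was 146 CPM (140 to 152) in WT and 68.6 CPM (64.5 to 72.8) in MG53-TG enterocyte-like cells, then 19.6 and 14.9 CPM in absorptive progenitor-like cells. In the other epithelial types it was at most 3.97 CPM, with overlapping intervals of neighbours in the order. Types further apart did not all overlap, such as enteroendocrine-like (1.81 to 7.53 CPM) and stem-like cells (0.146 to 0.666 CPM) in WT. In T cell-like cells of either library 0 UMIs were counted. Fgf15, a rare transcript with 336 WT and 181 MG53-TG UMIs over all epithelial cells, was at 19.9 CPM (17.6 to 22.3) and 10.6 CPM (9.08 to 12.4) in enterocyte-like cells. In no other epithelial type did it exceed 1.25 CPM.

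Slc51a and Slc51b were both highest in enterocyte-like and then in absorptive progenitor-like cells in both libraries. Slc51a was at 395 CPM (WT) and 379 CPM (MG53-TG) in enterocyte-like cells, 231 and 223 CPM in absorptive progenitor-like cells, and 28.8 and 32.3 CPM in stem-like cells. Slc51b was at 293 and 354 CPM in the first and 120.1 and 118 CPM in the second of these classes. Below them Slc51b was at 10.7 and 12.4 CPM in tuft-like, 11.5 and 5.35 CPM in enteroendocrine-like and 6.59 and 6.17 CPM in stem-like cells, and the intervals of neighbours in this order overlapped, except those of tuft-like and stem-like cells in MG53-TG. The stem-like level of Slc51a was above that in T cell-like cells (5.07 CPM, 2.32 to 9.62, in WT).

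Nr1h4 was found in nearly the whole epithelium. It was at 75.1 CPM (WT) and 66.1 CPM (MG53-TG) in absorptive progenitor-like cells and at 60.4 and 53.8 in enterocyte-like cells. In stem-like, secretory progenitor-like, goblet-like and enteroendocrine-like cells it lay between 24.96 and 35.7 CPM, and most neighbours in this order overlapped. Paneth-like cells (6.73 and 6.78 CPM) and tuft-like cells (4.59 and 6.71 CPM) stood lower, with intervals apart from all other epithelial types in both libraries, and T cell-like cells held 2 and 1 UMIs. Nr0b2 was close to the limit of detection, with 43 UMIs (0.406 CPM, 0.293 to 0.546) and 47 UMIs (0.523 CPM, 0.384 to 0.695) over the epithelial cells of WT and MG53-TG. In WT the stem-like class held 20 and the enterocyte-like class 9 of these UMIs, and in MG53-TG each held 15. All neighbours in the order of types by CPM overlapped in both libraries.

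**Figure D1:**
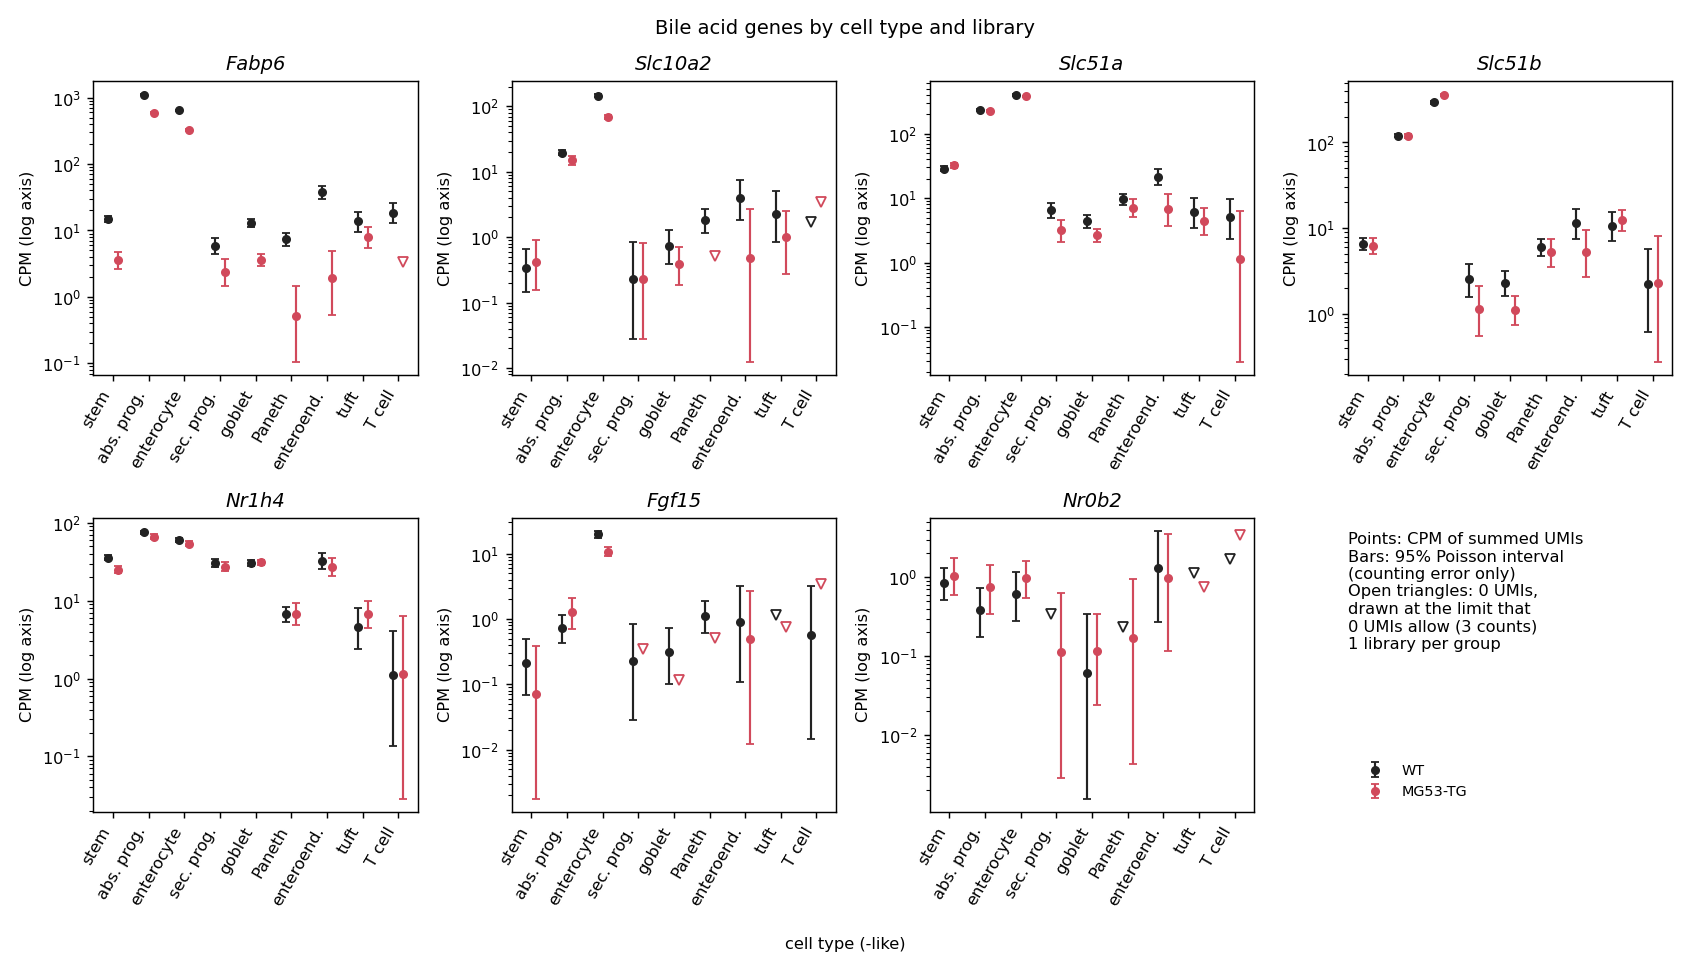
CPM of each bile acid gene (log axis) by cell type in WT (black) and MG53-TG (red), with 95% Poisson intervals and open triangles at the limit where 0 UMIs were counted. Fabp6 and Slc10a2 stand highest in the absorptive classes, whereas Nr1h4 is spread over all epithelial types and is lowest in Paneth-like and tuft-like cells.

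The absorptive classes were made of 7 clusters, of which 3 held most of the Fabp6, Slc10a2 and Fgf15 UMIs. Cluster 13 (absorptive progenitor-like, 233 WT and 99 MG53-TG cells), whose leading genes are Fabp6, Mgat4c and the gasdermin genes Gsdmc2 to Gsdmc4, held 65.0% (WT) and 52.1% (MG53-TG) of the epithelial Fabp6 UMIs in 3.81% and 2.15% of epithelial cells. Cluster 10 (enterocyte-like, 333 and 165 cells, led by Clca4a, Ly6m and Saa1) held 66.1% and 48.3% of the Slc10a2 and 58.0% and 53.0% of the Fgf15 UMIs. Cluster 6 (enterocyte-like, 392 and 324 cells, led by Plb1, Enpp7 and Fam151a) held 13.4% and 35.2% of the Slc10a2 and 26.2% and 37.6% of the Fgf15 UMIs. The member genes were left out of the clustering, but genes that vary with them, such as Tmigd1, were not.

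Fabp6 and Slc10a2 were highest in different clusters. Fabp6 was at 5975 CPM (WT) and 3122 CPM (MG53-TG) in cluster 13 and at 4630.4 and 2541 CPM in cluster 10. Slc10a2 was at only 113 (103 to 124) and 83.6 (71.7 to 96.9) CPM in cluster 13, against 1244 (1187 to 1304) and 694 (639.7 to 751) CPM in cluster 10. Fgf15 followed Slc10a2, with 3.04 and 7.13 CPM in cluster 13 and 138 and 109.5 CPM in cluster 10. In each library the intervals of all 3 genes were apart between the 2 clusters, with Fabp6 higher in cluster 13 and Slc10a2 and Fgf15 higher in cluster 10.

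The exporter genes and the receptor were high in both clusters. Slc51a was at 727 and 616 CPM in cluster 13 and at 1125 and 734 CPM in cluster 10. Slc51b was at 435 and 429 CPM in cluster 13 and at 564 and 475 CPM in cluster 10. Nr1h4 was at 138 and 112 CPM in cluster 13 and at 150.2 and 75.3 CPM in cluster 10, so that its WT level in both was above that of every other absorptive cluster (45.2 to 63.0 CPM). In cluster 4, led by Gm3776, Leap2 and Gsta1, and cluster 9, led by Cyp4a10, G0s2 and Reg1, Slc51a (159 to 279 CPM) and Slc51b (74.6 to 252 CPM) were still well detected, while Fabp6 was at 1.76 to 9.62 CPM and Slc10a2 at 0 to 2.38 CPM. Nr0b2 had 0 UMIs in clusters 10 and 13 of both libraries, which in WT allows up to 2.13 and 0.759 CPM.

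**Figure D2:**
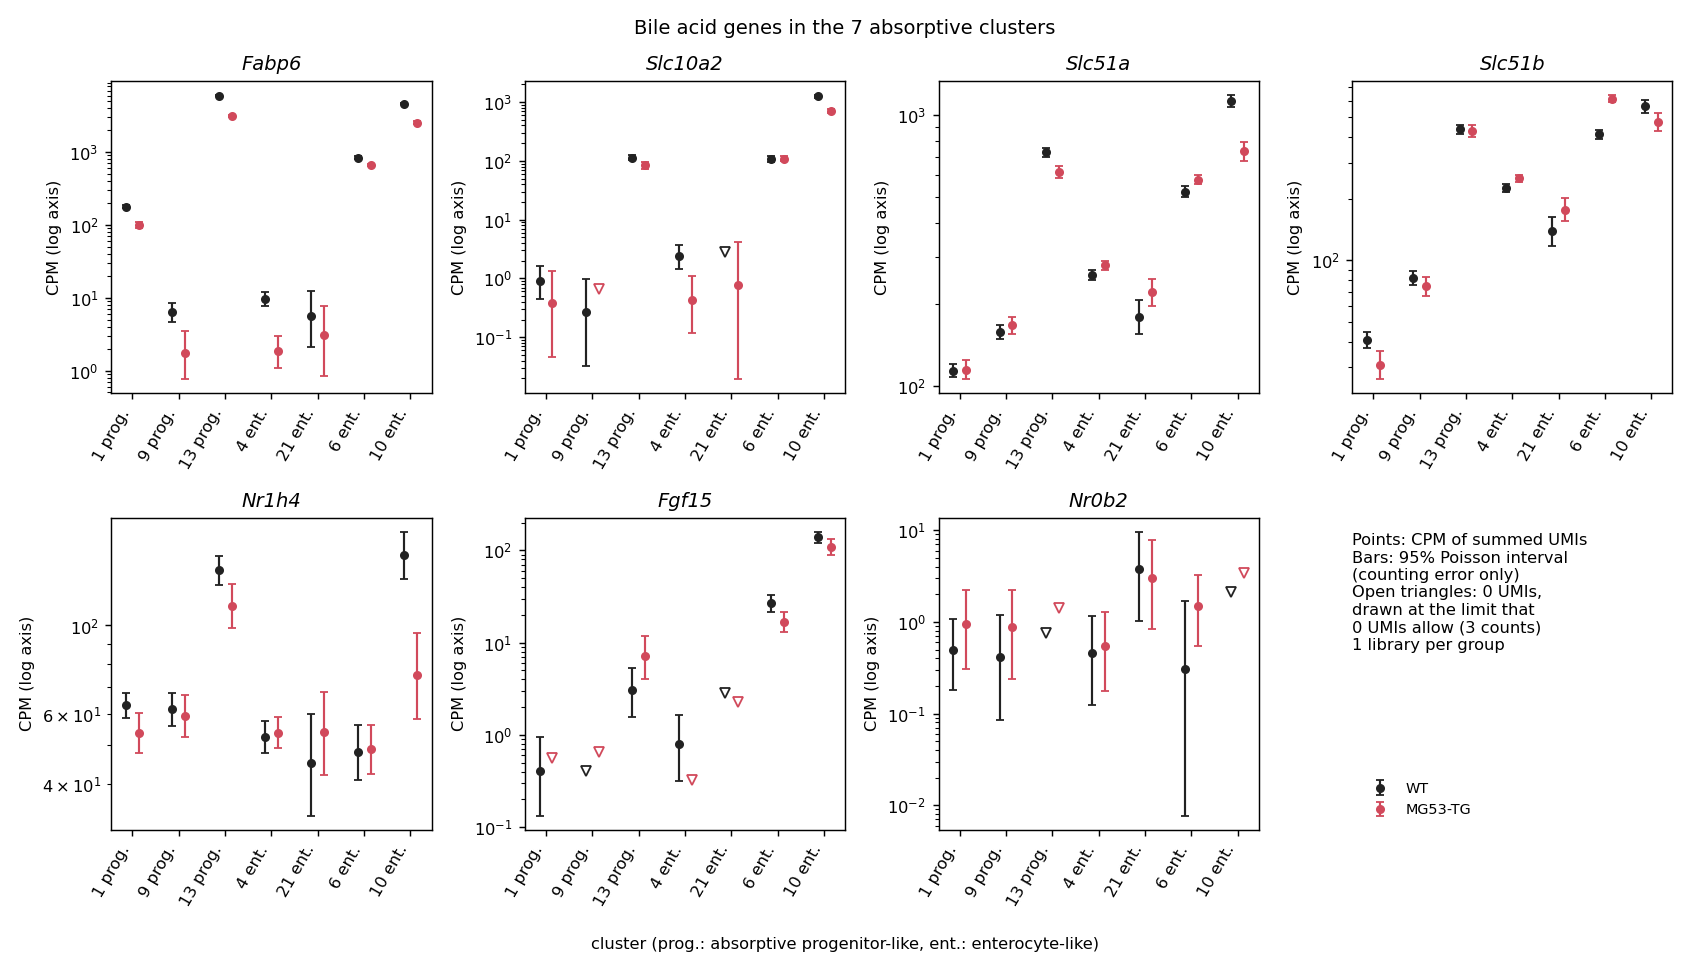
CPM of each bile acid gene (log axis) in the 7 absorptive clusters of WT (black) and MG53-TG (red), with 95% Poisson intervals and open triangles at the limit for 0 UMIs. Fabp6 is highest in cluster 13 and Slc10a2 and Fgf15 in cluster 10, while the exporter genes Slc51a and Slc51b are detected in all 7 clusters.

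Within clusters 10, 13 and 6 a UMI of the genes was not found in every cell. To compare cells at 1 depth, each was thinned to 1354 UMIs, which left no cell out. In cluster 10 a Fabp6 UMI was then found in 63.1% of WT cells (57.6 to 68.3) and 31.5% of MG53-TG cells (24.5 to 39.2), against 70.9% and 44.2% unthinned, with median depths of 3412 and 4503 UMIs. In cluster 13 the shares were 62.7% (56.1 to 68.9) and 35.4% (26.0 to 45.6), against 71.2% and 49.5% unthinned, at 16969 and 20976 UMIs. In cluster 6 they were 15.8% and 16.4%. At least 1000 CPM of Fabp6 was reached by 190 WT cells (57.1%) and 35 MG53-TG cells (21.2%) of cluster 10, and by 135 (57.9%) and 30 (30.3%) of cluster 13. Within these cells of cluster 10 the mean was 7092 (WT) and 8899 CPM (MG53-TG) and the median 5145 and 5382 CPM. In those of cluster 13 the mean was 10769.5 and 13165 CPM and the median 8626 and 7987 CPM. Among T cell-like cells 2.78% had a Fabp6 UMI in WT (16 of 575 cells, median depth 2826) and 0 of 231 in MG53-TG, which allows a share of up to 1.30% (median depth 3562).

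Slc10a2 and Slc51a were seen in a larger share of the cells with Fabp6 than of those without it. In WT cluster 10, 81.9% of the 210 cells with a Fabp6 UMI also had 1 of Slc10a2, against 39.0% of the 123 cells without it. In MG53-TG cluster 10 these shares were 69.2% of 52 and 26.5% of 113 cells. In cluster 13 they were 19.9% of 146 and 1.15% of 87 WT cells, and 28.6% of 35 and 0% of 64 MG53-TG cells. Slc51a was seen with Fabp6 in 82.9% of the WT and 76.9% of the MG53-TG cells of cluster 10 that had Fabp6, against 43.1% and 41.6% of those without. Other pairs did not all go this way, and Fgf15 was found in 4.76% of the 63 WT cells of cluster 10 with Nr1h4 against 11.9% of the 270 without. Nr0b2 was found in no thinned cell of clusters 10 and 13. Cells of a cluster share 1 library and are no replicates, so no test was made.

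**Figure D3:**
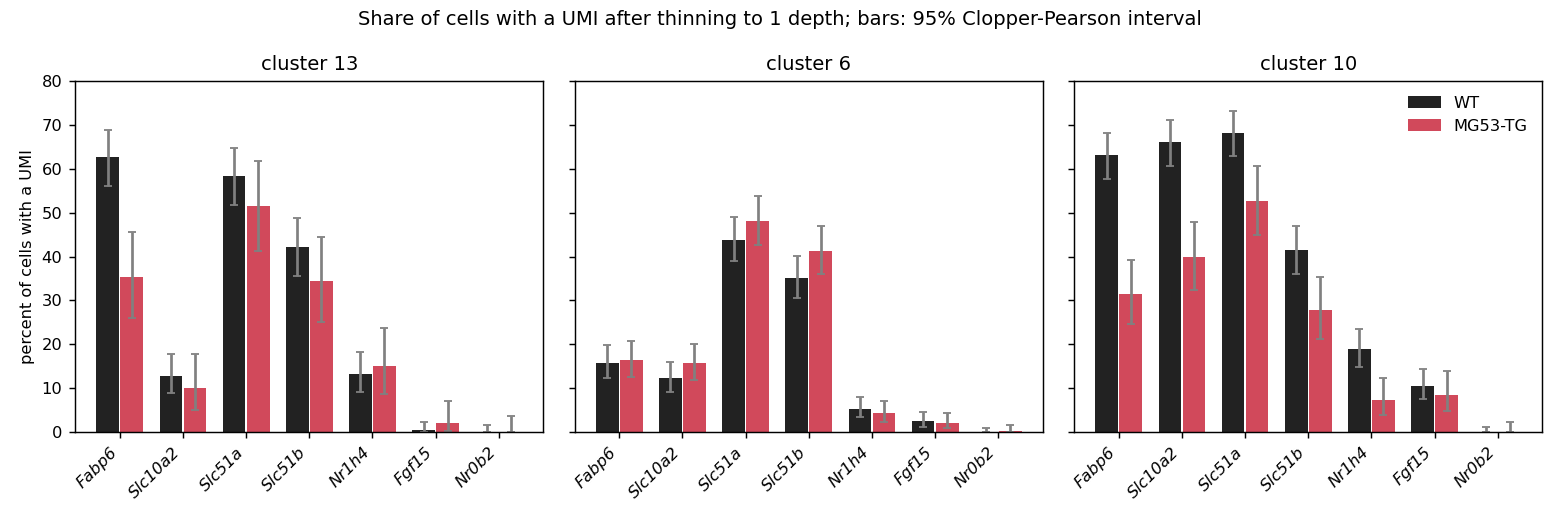
Share of cells with a UMI of each gene (percent, bars from 0) after thinning all cells to the same depth, in clusters 13, 6 and 10 of WT (black) and MG53-TG (red), with 95% Clopper-Pearson intervals. The Fabp6 share is 63.1% (WT) and 31.5% (MG53-TG) in cluster 10, and 15.8% and 16.4% in cluster 6.

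The second question was how the genes differed between the genotypes. Fabp6 was the member with the largest difference in the summed UMIs. Over all epithelial cells it was at 342 CPM (339 to 346, 36298 UMIs) in WT and 140.3 CPM (138 to 143, 12614 UMIs) in MG53-TG, which is 2.44 times higher in WT (log2 ratio of MG53-TG over WT -1.29, -1.32 to -1.26). The make-up of the epithelial cells differed as well. Absorptive progenitor-like cells were 20.2% (WT) and 10.9% (MG53-TG) of them, cluster 13 was 3.81% and 2.15%, and goblet-like cells were 19.7% and 33.0%. Within the classes Fabp6 was at -0.89 in absorptive progenitor-like and -1.001 in enterocyte-like cells. Slc10a2 was at 25.05 and 14.0 CPM (-0.84, -0.94 to -0.74) and Fgf15 at 3.17 and 2.01 CPM (-0.65, -0.92 to -0.39). The exporter genes differed by less, with Slc51a at 116 and 103 CPM (-0.17, -0.21 to -0.13) and Slc51b at 70.7 and 79.3 CPM (0.16, 0.12 to 0.21). Their directions turned with the processing, Slc51a to 0.0327 with a mitochondrial limit of 50% and Slc51b to -0.11 with the mean of single-cell CPM and -0.15 with cells thinned to 1 depth. Nr1h4 was at 42.4 and 35.8 CPM (-0.25, -0.31 to -0.18), and the interval of Nr0b2 included 0 (0.37, -0.26 to 0.997).

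Of the 7 members 1, Fabp6, passed a log2 ratio of 1 in size with at least 30 UMIs over both libraries, where 2.45% of the 14656 genes with as many UMIs did in either direction. With the mean of single-cell CPM 3 members passed, Slc10a2 (-1.22) and Fgf15 (-1.03) besides Fabp6, and with thinned cells 2, with Slc10a2 at -1.19. The share of all genes was not computed for these 2 settings, and 2.45% belongs to the summed UMIs. In the summed UMIs the median log2 ratio was -0.25 over the members and 0.09 over the 14656 genes. In enterocyte-like cells 2 of 6 members with enough UMIs passed, Fabp6 (-1.001, -1.05 to -0.95) and Slc10a2 (-1.09, -1.20 to -0.98), where 2.26% of 10674 genes did. The other members there were at -0.06 (Slc51a), 0.27 (Slc51b), -0.17 (Nr1h4) and -0.90 (Fgf15). In absorptive progenitor-like cells 0 of 6 passed, where 1.84% of 11194 genes did, and Fabp6 was at -0.89 (-0.93 to -0.85). The enterocyte-like values turned on how cells were clustered. At a finer resolution of 2 Fabp6 was at -0.14 and Slc10a2 at 0.12, and with each library clustered on its own Slc10a2 was at 0.63.

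**Figure D4:**
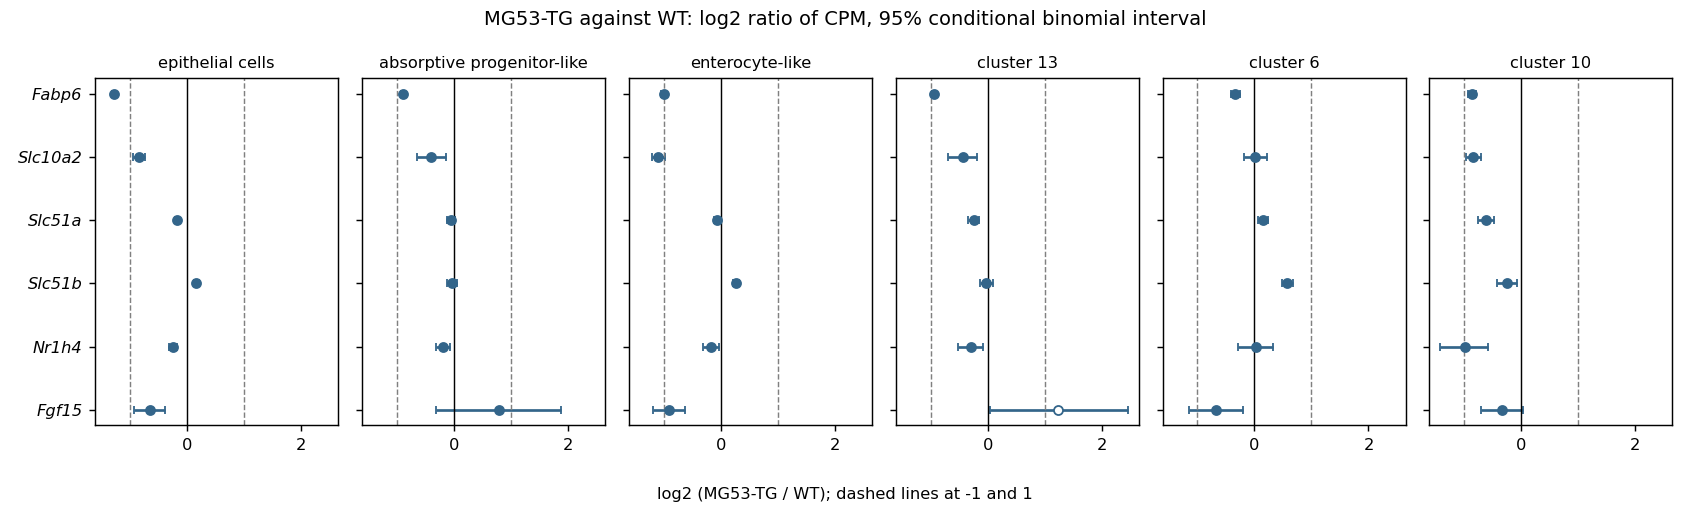
Log2 ratio of CPM, MG53-TG over WT, of 6 bile acid genes in 6 sets of cells, with 95% intervals for counting error, dashed lines at -1 and 1, and an open point where fewer than 30 UMIs were counted. Fabp6 lies below 0 in all 6 sets, from -1.29 in epithelial cells to -0.34 in cluster 6, whereas Slc51b lies at 0.58 in cluster 6 and -0.25 in cluster 10.

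Within single clusters the differences were of unequal size, and they changed again among cells of like distal share. Fabp6 was at -0.94 (-0.98 to -0.90) in cluster 13, -0.87 (-0.94 to -0.80) in cluster 10 and -0.34 (-0.41 to -0.26) in cluster 6. Slc10a2 was at -0.84 (-0.98 to -0.71) in cluster 10 and 0.01 (-0.19 to 0.22) in cluster 6. Slc51b was at 0.58 (0.48 to 0.68) in cluster 6, with 412 CPM (WT) and 615 CPM (MG53-TG), and at -0.25 (-0.42 to -0.08) in cluster 10. Nr1h4 was at -0.996 (-1.42 to -0.59) in cluster 10, on 212 and 66 UMIs, and at 0.02 (-0.29 to 0.33) in cluster 6. None of the members with enough UMIs passed the limit in these clusters, 0 of 5 in cluster 13, 0 of 6 in cluster 10 and 0 of 6 in cluster 6, where 2.46%, 8.22% and 2.63% of all genes tested did. All 6 were below 0 in cluster 10, as were 59.9% of all genes there, with a median of -0.73 against -0.10 over all genes, and the cells of this cluster were the shallowest of the 3.

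Fabp6 counts were also lower in MG53-TG in types outside the absorptive classes. The CPM was 18.6 in WT against 0 UMIs in T cell-like cells, 7.36 against 0.508 in Paneth-like, 37.5 against 1.94 in enteroendocrine-like, 14.8 against 3.58 in stem-like, 12.9 against 3.63 in goblet-like and 5.87 against 2.40 in secretory progenitor-like cells. The difference was smallest in tuft-like cells, at 13.8 against 7.95 CPM (-0.79, -1.53 to -0.06). Markers of another type were lower in absorptive cells too. A sum of 10 Paneth markers was at 1653 (WT) and 640 CPM (MG53-TG) in enterocyte-like cells and at 3708 and 1320 CPM in cluster 10. Over all epithelial cells, Paneth-like cells included, it was at 76209 and 46231 CPM. In WT barcodes under 100 UMIs, which hold free RNA rather than cells, Fabp6 made up 272 CPM, and the members' UMIs per 100 Fabp6 UMIs were 6.45 for Slc10a2, 33.5 for Slc51a, 23.0 for Slc51b and 12.5 for Nr1h4, close to the 7.32, 34.0, 20.7 and 12.4 of WT epithelial cells. The MG53-TG table holds no barcode under 500 UMIs, so free RNA could not be measured there, and its part in the difference was not tested.

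The third question was how position along the gut entered. Each absorptive cell was given a distal share, the UMIs of 13 genes of the distal small intestine over those of these and 10 proximal genes, with no member in either list. In WT 10.3% of 2344 absorptive cells had a distal share of 0.8 to 1, and in MG53-TG 6.48% of 1389. Under 0.2 lay 55.2% of the WT cells and 60.9% of the MG53-TG cells. In cluster 13 the median distal share was 0.568 (WT) and 0.301 (MG53-TG), in cluster 10 it was 0.795 and 0.755, and in cluster 6 it was 0.423 and 0.452.

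All members but Nr0b2 were higher in the most distal than in the least distal bin in both libraries. From the lowest to the highest bin Fabp6 went from 8.28 to 11031 CPM in WT and from 6.07 to 9123 CPM in MG53-TG. Slc10a2 went from 1.12 to 793 and from 0.616 to 779 CPM. Slc51a spanned 176 to 1205 and 215 to 1122 CPM, Slc51b 120.2 to 576 and 168 to 663 CPM, and Nr1h4 54.3 to 202 and 54.7 to 147 CPM. Fgf15 was at 62.1 CPM (WT) and 91.5 CPM (MG53-TG) in the most distal bin, and at 0.231 CPM and 0 UMIs in the least distal.

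The genotypes were then compared between cells of like distal share. Summed over these absorptive cells the log2 ratio of Fabp6 was -1.10 (-1.13 to -1.07). In the 5 bins it was -0.45, 0.47, -0.21, -0.74 and -0.27 from the least to the most distal, with an equal-weight mean of -0.24. Slc10a2 was at -0.63 in the sum and at -0.86, 0.84, 0.61, -0.07 and -0.03 in the bins, with a mean of 0.10. Slc51b was at 0.40 in the sum and higher in MG53-TG in all 5 bins, by 0.48, 0.89, 0.87, 0.46 and 0.20. Nr1h4 was at -0.24 in the sum and at 0.01, -0.23, -0.51, -0.55 and -0.46 in the bins, and Slc51a at 0.06 in the sum and at 0.29, 0.66, 0.35, 0.08 and -0.10. The pooled Fabp6 difference was smaller in each bin than in the sum, whereas those of Slc51b, Nr1h4 and Slc51a were larger in most bins.

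**Figure D5:**
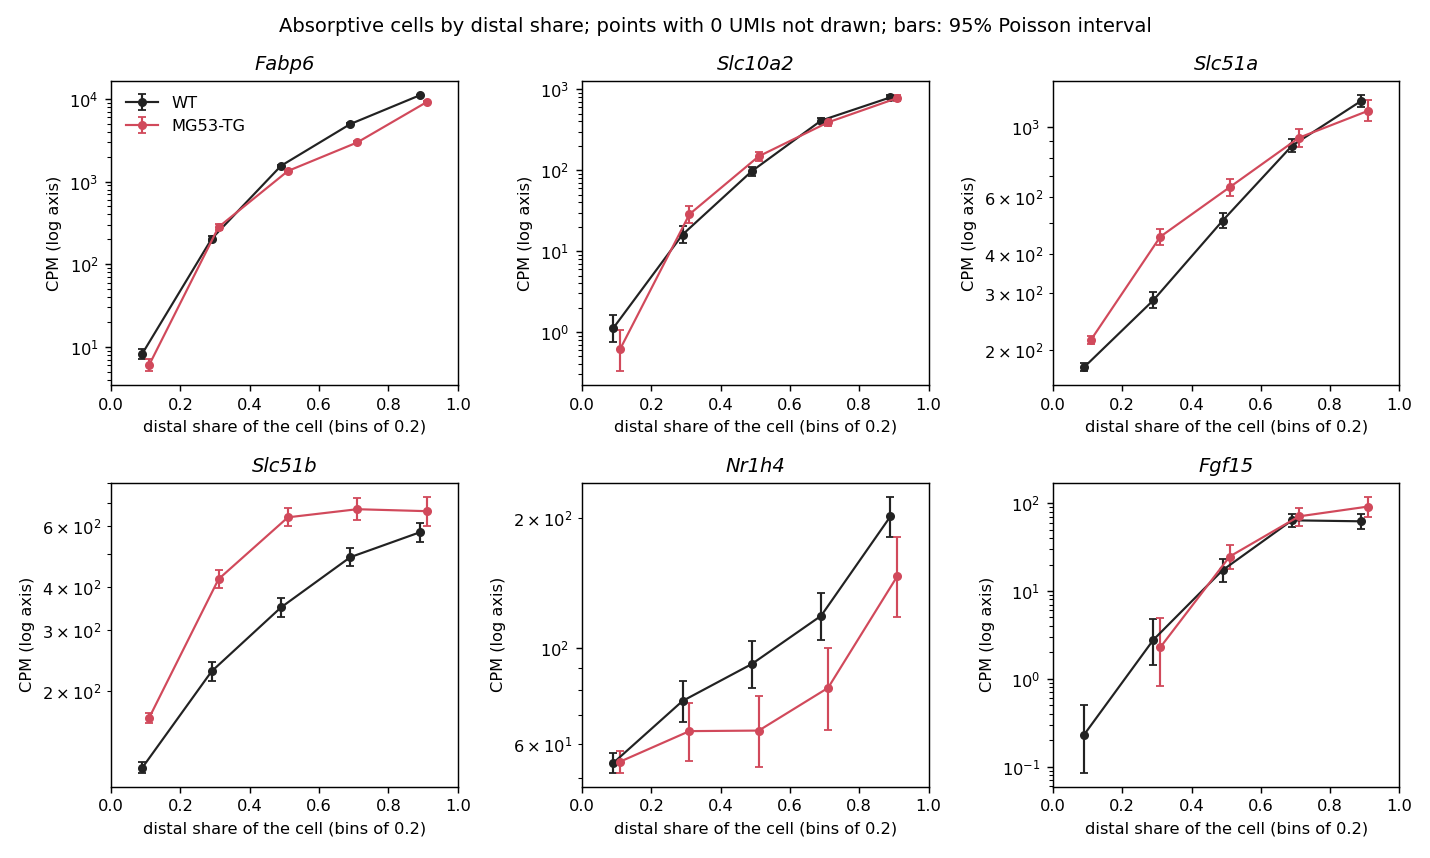
CPM of 6 bile acid genes (log axis) in absorptive cells by bins of the distal share, WT in black and MG53-TG in red, with 95% Poisson intervals. Fabp6 climbs from 8.28 to 11031 CPM in WT and from 6.07 to 9123 CPM in MG53-TG, and Slc51b is higher in MG53-TG in all 5 bins.

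The classes within a bin did not move alike. The log2 ratio of Fabp6 was -1.88, -3.45, 0.53, -0.60 and -0.90 in enterocyte-like cells from the least to the most distal bin, and 0.27, 1.94, -0.72, 0.74 and 0.31 in absorptive progenitor-like cells. In the most distal bin the enterocyte-like cells (174 WT and 75 MG53-TG) had Fabp6 at 8021 and 4311 CPM (-0.90, -0.98 to -0.81), Slc51b at 597 and 504.5 CPM (-0.24, -0.50 to 0.01) and Nr1h4 at 213 and 104 CPM (-1.04, -1.60 to -0.52). The absorptive progenitor-like cells there (68 WT and 15 MG53-TG) had Fabp6 at 13114 and 16307 CPM (0.31, 0.26 to 0.37), Slc51b at 561 and 900 CPM (0.68, 0.45 to 0.91) and Nr1h4 at 194 and 212 CPM (0.12, -0.35 to 0.57). The MG53-TG values of the latter rest on 15 cells, whose spread the counting interval does not cover. Within cluster 13 Fabp6 was at 0.33, -0.42 and 0.24 at a distal share of 0 to 0.4, 0.4 to 0.8 and 0.8 to 1, against -0.94 over the whole cluster, and Slc10a2 was at 0.96 (6 and 13 UMIs), 0.93 and 0.30, against -0.43. The first and last of these Slc10a2 intervals included 0. Within cluster 10 Fabp6 was at -0.13 and -0.72 in the upper 2 of these bins, against -0.87, and Slc10a2 at -0.87 and -0.42, against -0.84. The lowest bin of cluster 10 held 22 WT and 17 MG53-TG cells, with 2 and 8 Fabp6 UMIs. In cluster 6 the Fabp6 ratios went further from 0 in 2 of the 3 bins, at -3.87 (299 and 23 UMIs), -0.15 and -2.20 (11 and 12 cells), against -0.34 over the cluster.

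The members were also followed over the mitochondrial share of UMIs, on which barcodes were filtered. Barcodes over the limit of 25% were 33.7% of the WT and 46.1% of the MG53-TG barcodes past the UMI and gene minimum. They held 4.01% of the Fabp6 UMIs in WT and 4.96% in MG53-TG, but 19.0% and 35.0% of the Slc51a UMIs and 13.6% and 20.7% of the Slc51b UMIs. Counted over UMIs outside the mitochondrial genome, Fabp6 was highest at a share of 10 to 25% (787 CPM for WT and 357 for MG53-TG) and lower at 25 to 50% (190.4 and 56.1 CPM), whereas Slc51a was highest at 25 to 50% (338 and 413 CPM). With the limit at 50% the epithelial log2 ratio of Slc51a was 0.03 and that of Fabp6 -1.36.

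The genes whose pattern was most like each member were found from the correlation of log2(CPM + 1) over 40 sums of cluster and library, among 12833 genes. These sums share libraries and depth, so r is a description. The closest to Fabp6 was Slc10a2 (r = 0.866), followed by Tnfaip8l2, Tmigd1, Slc5a8 and Slc34a2 (0.829 to 0.837). The closest to Slc10a2 were Tmigd1 (0.939) and Fgf15 (0.938), then Slc34a2, Slc5a8 and Pmp22 (0.887 to 0.909), and the closest to Fgf15 were Hspa12a (0.942), Slc10a2, Sgk2, Tmigd1 and Slc34a2. Tmigd1 and Slc34a2 are among the 13 distal genes. Slc51a was most like Enpep (0.987), an aminopeptidase of the brush border, then Tgfbi, Mall, Ces2e and Ocm, and Slc51b was most like Slc7a9 (0.972), Ocm, Mep1b, Slc51a (0.960) and Enpep. Nr1h4 was most like Cask (0.904), Sept9, Erbb2, Ugt2b34 and Bcl2l15, with no member among them.

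Of 37 other genes of bile acid handling, 28 had at least 30 UMIs in epithelial cells and 0 passed a log2 ratio of 1 in size (2.45% of all genes did), with a median of 0.02 and a range of -0.62 to 0.998. In enterocyte-like cells 0 of 23 passed (2.26% of all genes did), with a median of 0.10. In absorptive progenitor-like cells 2 of 23 passed (1.84% of all genes did), Cyp3a11 (58 and 63 UMIs, 1.09) and Fgfr4, a receptor of Fgf15 (29 and 4 UMIs, -1.89). The gene nearest the limit in epithelial cells was Cyp3a11, a detoxifying enzyme that hydroxylates bile acids, at 16.8 CPM (WT) and 33.6 CPM (MG53-TG), and in enterocyte-like cells it was at 101 and 166 CPM (0.71, 0.62 to 0.81).

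Slco2b1, an uptake transporter, was at 11.6 and 7.52 CPM over epithelial cells (-0.62, -0.76 to -0.49) and at 9.73 and 10.6 CPM in enterocyte-like cells (0.13, -0.20 to 0.47). Abcc2 and Abcg2, apical export pumps, were at 75.6 and 88.9 CPM (0.23, 0.12 to 0.35) and at 193 and 231 CPM (0.26, 0.19 to 0.33) in enterocyte-like cells. Abcc3, a basolateral pump, was at 35.3 and 39.6 CPM with an interval that included 0, and Abcc4 had 3 and 1 UMIs. The hepatocyte transporters Slc10a1 and Abcb11 were at 0.245 CPM or below over epithelial cells of either library.

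Partners of FXR and other receptors were compared in enterocyte-like cells. Rxra, the dimer partner of FXR, was at 47.2 and 44.0 CPM (-0.10, -0.26 to 0.05). Hnf4a was at 182 and 185 CPM, with an interval of the ratio that included 0. The xenobiotic receptors Nr1i2 (PXR) and Nr1i3 (CAR), which also respond to bile acids, were at 55.4 and 47.0 CPM (-0.24, -0.38 to -0.09) and at 63.5 and 52.1 CPM (-0.28, -0.42 to -0.15). Vdr, the vitamin D receptor, was at 146 and 151 CPM. Gpbar1, the membrane receptor for bile acids, was detected mainly in enteroendocrine-like cells, at 6.61 CPM (WT, 286 cells) and 3.89 CPM (MG53-TG, 181 cells).

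Regulators and enzymes completed the list. Gata4, which restrains ileal transporters in the proximal gut, was at 34.5 and 42.5 CPM (0.30, 0.13 to 0.47) in enterocyte-like cells, and Maf, which promotes them, at 368 and 417 CPM (0.18, 0.13 to 0.24). Malrd1, which raises Fgf15 protein output, was at 76.5 and 62.1 CPM (-0.30, -0.43 to -0.18). Cyp27a1, an enzyme of the alternative synthesis route, was at 55.1 and 38.7 CPM (-0.51, -0.66 to -0.35). Of the Fgf15 receptor complex, Klb was at 5.3 CPM (WT) and 9.24 CPM (MG53-TG) in enteroendocrine-like cells, and at 1 and 0 UMIs in enterocyte-like cells. The enteroendocrine-like levels rest on 286 and 181 cells and are given without intervals, so the genotypes are not compared on them.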

How the data were processed

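The deposited tables hold raw UMI counts per gene and barcode, which the authors made with Cell Ranger (version 4 for WT, 6.0.1 for MG53-TG) on mm10. The totals were 158455748 UMIs for WT and 128227881 for MG53-TG. The WT table holds all barcodes and the MG53-TG table none under 500 UMIs.

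Barcodes with at least 1354 UMIs, 200 genes and at most 25% mitochondrial UMIs were kept, and 438 WT and 212 MG53-TG barcodes were removed as likely doublets, since the automatic threshold marked only 1 and 2. The libraries shared 8 barcodes. Cells were clustered together (scanpy 1.11.5, leidenalg 0.10.2, Python 3.11.15) into 25 clusters without the bile acid genes and Trim72 and named from marker lists. The marker Pla2g2a had no row, and 5 enterocyte genes that bar a secretory name were chosen after the clusters were seen. Summed UMIs were divided by all UMIs of the same cells (CPM). Levels have exact Poisson, shares exact Clopper-Pearson and ratios exact conditional binomial intervals (scipy 1.17.1), at 95%. With 1 library per group no test was made. On simulated counts of the epithelial sum (14663 genes) 100% of 200 genes changed 4-fold were recovered, 43 unchanged genes were called, and 95.3% of the intervals held the true ratio. The simulation drew counting error alone, with no spread between libraries, mice or cells, so it checks the calculation and not the comparison of genotypes.

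Named genes were the members, 37 other bile acid genes, and for each member with at least 100 UMIs the 5 genes of highest correlation. Members and lists were chosen with earlier results of these data known, and the promoter motif after the sequences were seen. An item of the lists is not reported here.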

Additional observations from a re-analysis of the deposited data

Results flagged for a closer look

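WT barcodes under 100 UMIs, which enter no comparison of cells, held UMIs of the bile acid genes above the limit that a count of 0 allows. They numbered 1628 for Fabp6, 105 for Slc10a2, 545 for Slc51a, 375 for Slc51b, 204 for Nr1h4 and 17 for Fgf15, among 5978198 UMIs in 1434027 barcodes. The MG53-TG table has no such barcodes.

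At a distal share of 0.8 to 1 the log2 ratio of Fabp6, MG53-TG over WT, was -0.90 in enterocyte-like and 0.31 in absorptive progenitor-like cells. The 2 classes differed in direction with 1 library per group, and the difference was not tested.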

How the results depend on the processing

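No paired analysis was possible because each group had 1 library, and no replicate could be left out. The epithelial log2 ratio of Fabp6 (-1.29) kept its sign in all 13 alternatives. It was -1.39 with median of ratios scaling, -1.37 as the mean of single-cell CPM, -1.33 with cells thinned, -1.35 with a minimum of 500 or of 99 UMIs, -1.36 with a mitochondrial limit of 50% and -1.22 with no doublets removed. Slc51a turned to 0.0327 with the 50% limit, and Slc51b to -0.11 with the mean of single-cell CPM and -0.15 with thinned cells. The latter 2 settings left 1 member higher in MG53-TG in place of 2 (3 with the 50% limit) and put 3 and 2 members past the fold in place of 1. Slc10a2 (-0.84) was then -1.22 and -1.19, Fgf15 (-0.65) -1.03 and -0.98, and Nr0b2 (0.37) 0.20 and 2.41, the last with an interval of -0.93 to 8.03.

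The enterocyte-like class depended on the clustering. Fabp6 (-1.001) was -1.26 with the mean of single-cell CPM, -1.27 with thinned cells, -1.45 with a minimum of 500 UMIs, -1.31 with the 50% limit, -0.92 with no doublets removed, -0.25 with bile acid genes kept for clustering, -1.73 at resolution 0.5, -0.14 at resolution 2 and -1.26 with each library clustered alone. Slc51b (0.27) kept its sign in all 13 alternatives but moved out of its interval in 8, with values from 0.00080 to 0.41. Slc10a2 turned to 0.12 at resolution 2 and 0.63 with libraries alone, and Fgf15 to 0.15 with libraries alone. Slc51a turned to 0.18, 0.15 and 0.19 with bile acid genes kept and at resolutions 0.5 and 2, and Nr1h4 to 0.0682, 0.0702 and 0.0347 there and 0.0130 with libraries alone. Members higher in MG53-TG were 4 with bile acid genes kept or resolution 0.5 and 5 at resolution 2 or with libraries alone, in place of 2. Members past the fold were 1 with a pseudocount of 1 CPM, with no doublets removed, at resolution 0.5 or with libraries alone, 0 with bile acid genes kept or at resolution 2, and 3 with the mean of single-cell CPM or the 50% limit, where Fgf15 was at -1.03 and -1.09, in place of 2.

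In absorptive cells Fabp6 (-1.10) was -0.45, 0.47, -0.21, -0.74 and -0.27 by bin and -0.24 as their mean. Slc10a2 turned to 0.84 and 0.61 at a distal share of 0.2 to 0.4 and 0.4 to 0.6 and 0.10 as the mean, Slc51a to -0.10 in the last bin, Nr1h4 to 0.0109 in the first, and Fgf15 to 0.51, 0.15 and 0.56 in the last 3. No mean was taken for Fgf15 and Nr0b2, with 0 UMIs in a bin. With no minimum of UMIs, 18.8% of genes in epithelial and 22.3% in enterocyte-like cells passed the fold, against 2.45% and 2.26%. For the other settings the share of all genes was not computed. A denominator without mitochondrial UMIs was added after seeing the data. Except where a setting's construction shows it, the cause was not tested.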
